A study of Mus musculus with 12 samples.

Results

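The nuclear genes of the mitochondrial ribosomal proteins were followed in C2C12, an established line of mouse myoblasts. These cells leave the cell cycle and fuse into myotubes after serum is lowered. A gene was a member if its symbol in the deposited count table began with Mrpl or Mrps and a number and it had at least 10 counts summed over the libraries. The rule found 77 members among 21232 genes by name and total count alone, although earlier results of these data were known when the set was proposed. All 77 passed the filter on low counts, and the smallest count of any member in any library was 236. The libraries fell into 4 groups of 3, lettered A, B and C. Proliferating myoblasts in growth medium were collected at 0 h, and control cells at 48 h of differentiation in low horse serum. TNF cells were differentiated for 48 h with the inflammatory cytokine TNF at 10 ng/ml. Fbxl2 siRNA cells were collected at 48 h of differentiation after silencing of Fbxl2, whose F-box protein selects substrates for ubiquitination by SCF ligases. The labels give C57BL/6 as the strain for all groups and name no further genotype. No label states if a non-targeting siRNA was given to the unsilenced groups, so the silencing and the transfection cannot be told apart.

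Mitochondria carry their own ribosome, which makes only the hydrophobic core subunits of the respiratory chain and ATP synthase encoded by mitochondrial DNA. Its ribosomal RNAs come from mitochondrial DNA, whereas its proteins are translated in the cytosol and imported, so the particle is built from the products of both genomes. About its RNA core sit proteins with bacterial counterparts, and around these a shell of proteins that arose in mitochondria. In muscle the machinery is best known for serving oxidative capacity, and inherited loss of several members causes combined respiratory chain deficiency. The members were grouped by role into 30 large subunit proteins with bacterial homologs, 20 large subunit proteins specific to mitochondria, 16 small subunit proteins with bacterial homologs and 10 small subunit proteins specific to mitochondria. The names Mrps18a and Mrps30 mislead, since both proteins belong to the large subunit, where they were counted. Mrps36 was put in no ribosomal group because its protein is now known as a subunit of the 2-oxoglutarate dehydrogenase complex.

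Library totals ran from 26416978 to 32917763 counts. At this depth 3 counts equal 0.0911 to 0.114 CPM, far below the level of every member. CPM are counts scaled to a common library size: a library's counts were divided by its total and by its TMM factor, which corrects for differences in composition. Whether the lettered libraries come from separate cultures is not stated. The p-values therefore speak of the spread among libraries, which may be technical only. Fbxl2 was at 31.8, 32.6 and 34.4 CPM in control libraries and at 22.5, 20.6 and 23.6 CPM in Fbxl2 siRNA libraries. The siRNA libraries were all below the controls, with a log2 fold change of -0.57 ± 0.0642 (SE). Markers of the myogenic line summed to between 1060 and 2096 CPM in every library. The summed markers of adipocytes were at most 19.6 CPM, of macrophages at most 3.67 CPM, with Adgre1 at 0 in all libraries, and of endothelium at most 2.84 CPM. Fibroblast markers, most of them matrix genes, summed to 2723 to 8854 CPM, with the fibroblast marker Thy1 at 0 in all but the Fbxl2 siRNA group.

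As a set the members were most abundant in proliferating myoblasts and least abundant in control myotube cultures. Their summed level was 3082, 3376 and 3224 CPM in the proliferation libraries A, B and C. It was 2162, 2173 and 2183 CPM in the control libraries. In TNF libraries the sum was 2291, 2401 and 2372 CPM, and in Fbxl2 siRNA libraries it was 2644, 2910 and 2744 CPM. On this scale no 2 groups overlapped, and the order was proliferation, Fbxl2 siRNA, TNF, control. The group means were 3227 ± 147, 2766 ± 134, 2354 ± 57.2 and 2173 ± 10.9 CPM in that order (SD, n = 3). Control cells thus held 67.3% of the proliferation mean, TNF cells 73.0% and Fbxl2 siRNA cells 85.7%. As a plain share of all counts, without the TMM factor, TNF library A at 0.2231% lay below control library C at 0.2234%, so on that scale TNF and control overlapped. In bulk RNA, fewer cells of a type and less RNA per cell cannot be told apart.

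The ribosomal subunits kept nearly the same proportion to each other throughout. The 50 large subunit genes summed to 2196 CPM in proliferation, 1485 in control, 1611 in TNF and 1899 in Fbxl2 siRNA cells. The 26 small subunit genes summed to 1001, 669, 722 and 841 CPM in the same groups. The ratio of large to small subunit sums was 2.19 ± 0.0198, 2.22 ± 0.0271, 2.23 ± 0.00837 and 2.26 ± 0.0032 (SD, n = 3). The means therefore lay between 2.19 and 2.26, while in proliferation the large subunit sum was 147.8% and the small subunit sum 149.6% of control.

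**Figure D1:**
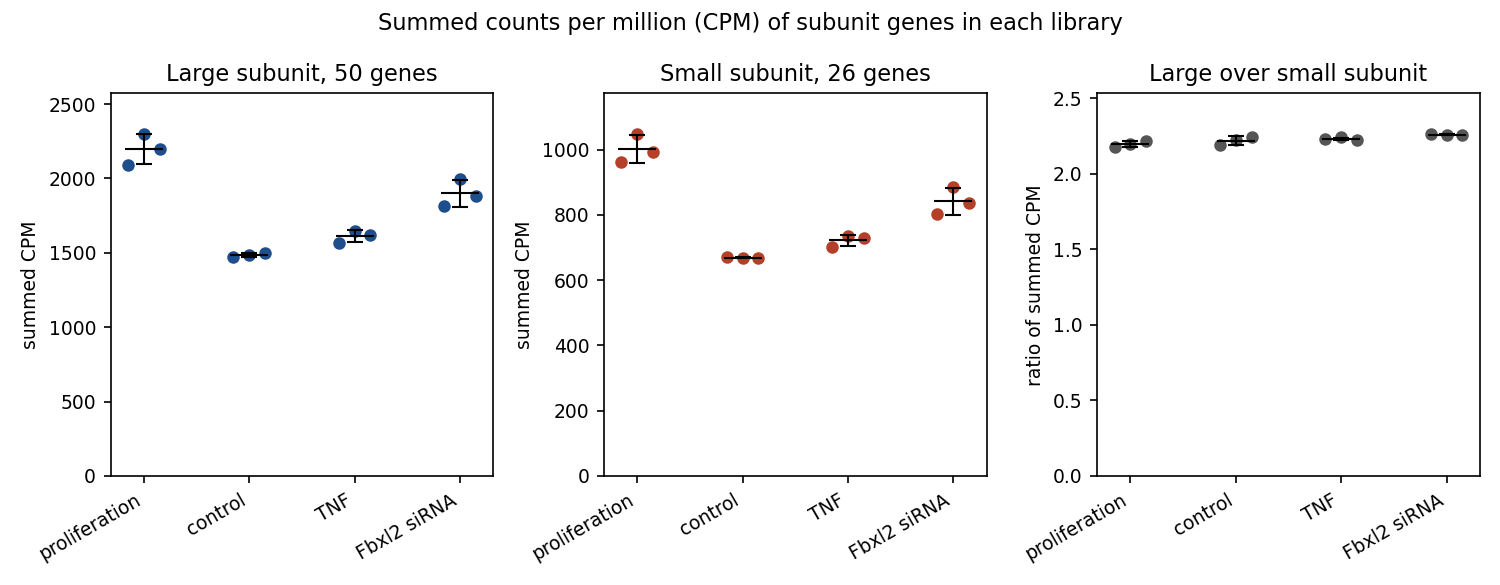
Summed CPM of the 50 large subunit genes (left) and the 26 small subunit genes (middle), and the ratio of these sums (right), by group on the horizontal axis; points are libraries A, B and C from left to right, horizontal lines are means and bars are SD (n = 3). Both sums are highest in proliferation and lowest in control, while the ratio stays between 2.17 and 2.26 in the 12 libraries.

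Levels between members were compared per kilobase of annotated exon. In proliferation the members spanned 2.74 to 61.2 CPM per kb with a median of 17.5, and in control cells 1.81 to 50.9 CPM per kb with a median of 11.3. Mrps6, a small subunit protein with a bacterial homolog, was the highest in proliferation at 61.2 CPM per kb, followed by Mrps21 at 60.5 and by the stalk protein Mrpl12 at 59.1. In control cells Mrps21 led at 50.9 CPM per kb, with Mrpl10 next at 32.9, while Mrps6 was at 18.6. These levels use the full exon length of GENCODE M21, which counts rarely used exons too.

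The comparison of control with proliferating cells asked how the genes changed as myoblasts differentiated. Of the 77 members 71 fell, 1 rose and 5 did not pass the test (edgeR's quasi-likelihood test, adjusted p under 0.05 over all 12736 genes tested). Among all genes tested, 38.9% fell and 38.4% rose. The median log2 fold change of the members was -0.57, with the middle of the distribution from -0.70 to -0.35, against a median of -0.000836 over all genes. A fall of more than 1.5-fold was seen in 36 members and in 2199 of all 12736 genes. In either direction, 46.8% of members and 37.5% of all genes passed that size. The fall ran through every role: 28 of 30 large subunit proteins with bacterial homologs (median -0.62), 18 of 20 mitochondria-specific large subunit proteins (-0.54), 15 of 16 small subunit proteins with bacterial homologs (-0.46) and 9 of 10 mitochondria-specific small subunit proteins (-0.65). Beside this, the 6 markers of cycling cells all fell, from sums of 1629 to 1769 CPM in proliferation to 439 to 499 CPM in control libraries. The 6 myotube markers all rose, from 37.2 to 51.3 CPM to 2375 to 2837 CPM. Of the fibroblast markers 3 of the 4 tested rose, and their sum went from 2723 to 3396 CPM to 6439 to 6505 CPM. The part of these in the change of the members was not tested.

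**Figure D2:**
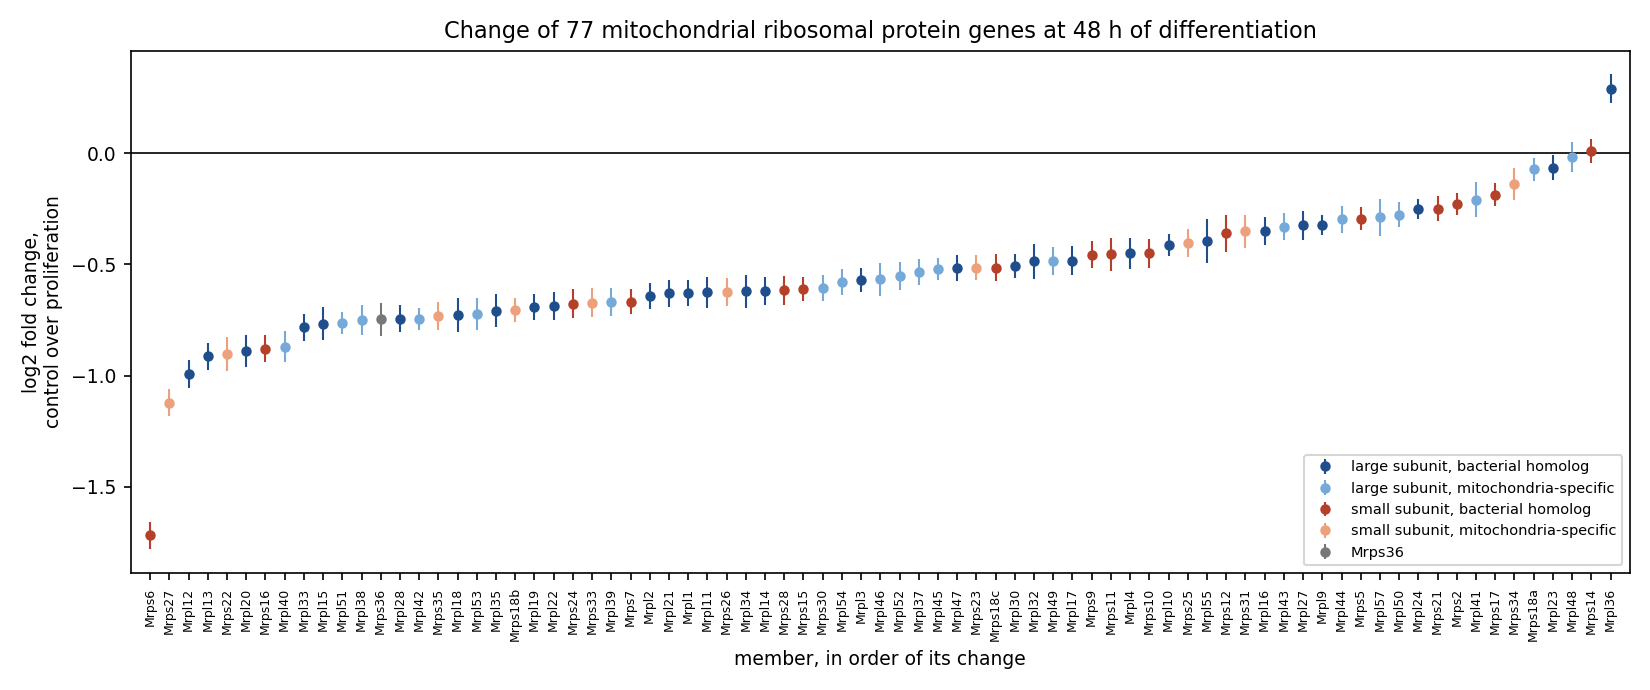
Log2 fold change of each of the 77 members, control over proliferation, in order of size, coloured by role; bars are the standard error from edgeR. All but 2 points lie below 0, from Mrps6 at -1.72 to Mrps14 at 0.01 and Mrpl36 at 0.29.

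Mrps6, whose bacterial counterpart S6 sits on the platform of the small subunit, fell most. It was at 85.1, 102 and 94.1 CPM in proliferation and at 28.8, 28.5 and 28.2 CPM in control libraries. Every control library was below every proliferation library, and the fall was 3.29-fold (log2 fold change -1.72 ± 0.0617, edgeR adjusted p = 9.28e-16). The gene lies at chr16:92058270-92112227 on the plus strand of GRCm38. Of its 1533 exon bases, 305 are shared on the same strand with the gene model Gm49711 and 159 with Slc5a3, the myo-inositol transporter. Reads from those bases could not be told apart. Slc5a3 itself was at 88.9, 90.9 and 88.4 CPM in proliferation and 19.7, 19.7 and 22.7 CPM in control libraries (log2 fold change -2.11). The part of shared reads in the value of Mrps6 was not tested.

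Mrps27, a pentatricopeptide repeat protein of the small subunit, was next. Its level was 39.9, 44.3 and 44.9 CPM in proliferation and 19.5, 20.4 and 19.4 CPM in control libraries. The groups did not overlap (log2 fold change -1.12 ± 0.0623, edgeR adjusted p = 1e-12). Mrps22, another small subunit protein specific to mitochondria, was at 27.1, 32.9 and 29.7 CPM and then at 15.9, 16.3 and 15.7 CPM. Its control libraries were likewise all lower (log2 fold change -0.90).

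Mrpl12 forms the flexible stalk that recruits translation factors, and its protein is also known to bind the mitochondrial RNA polymerase. It was at 85.7, 93.7 and 92.1 CPM in proliferation and 44.8, 45.9 and 45.8 CPM in control libraries. This was a 1.99-fold fall without overlap (log2 fold change -0.99 ± 0.0628, edgeR adjusted p = 8.62e-12). The proteins at the base of the stalk fell less: Mrpl10, which anchors Mrpl12, had a log2 fold change of -0.41, and Mrpl11 one of -0.63. Mrpl13, a large subunit protein with a bacterial homolog, went from 95.8, 114 and 98.9 CPM to 55.2, 53.9 and 54.7 CPM (log2 fold change -0.91).

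The member that rose was Mrpl36, among the smallest of the bacterial-type large subunit proteins. Its proliferation libraries were at 20.9, 24.3 and 23.5 CPM and its control libraries at 27.2, 28.6 and 28.3 CPM. The groups did not overlap, and the rise was 1.22-fold (log2 fold change 0.29 ± 0.0645, edgeR adjusted p = 0.000396). Its annotated exons share 30 bases with Ndufs6 on the opposite strand, and whether the authors' counting used strand is not given in the sources used here. The members that did not pass the test were Mrps34 (log2 fold change -0.14), Mrps18a (-0.07), Mrpl23 (-0.06), Mrpl48 (-0.02) and Mrps14 (0.01). Most annotated exon bases of Mrps34 are shared with Mapk8ip3 on the opposite strand, and a smaller part with Nme3 on the same strand. The part of shared reads in the value of Mrps34 was not tested. Mrpl23 and Mrpl48 are among 3 members with an annotated pseudogene of their name, the other being Mrps36, and reads of such copies may be split or lost.

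The paralogs of bacterial S18 parted ways. In mammals 3 genes descend from it: Mrps18c and Mrps18b make small subunit proteins, and Mrps18a a large subunit protein. Mrps18b went from 37.8, 39.9 and 37.6 CPM in proliferation to 24.1, 23.9 and 22.8 CPM in control libraries, all of them lower (log2 fold change -0.70). Mrps18c went from 30.2, 35.8 and 32.3 CPM to 23.1, 22.5 and 23.2 CPM, again without overlap (log2 fold change -0.51). Mrps18a was at 32.1, 32.2 and 32.8 CPM and then at 30.9, 31 and 30.5 CPM. Its control libraries were also the lower ones, but the difference was small and did not pass (log2 fold change -0.07 ± 0.0531, edgeR adjusted p = 0.215). Differences between the paralogs were not tested.

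Proteins at other functional sites of the ribosome fell too. Mrps12, which lies at the decoding centre, had a log2 fold change of -0.36. Mrpl45, which holds the ribosome to the inner membrane near the exit of the nascent chain, had one of -0.52, and Mrps30, a large subunit protein despite its name, one of -0.61. All of these passed the test. Mitoribosomal proteins that carry other names moved the same way: all 6 in the table (Dap3, Ptcd3, Chchd1, Aurkaip1, Gadd45gip1 and Ict1, the peptide-releasing hydrolase of the large subunit) fell, with a median of -0.61. That compares with 38.9% of all genes tested that fell. Chchd1, a small subunit protein, went from 39.4, 47.4 and 42.7 CPM to 20.1, 21.8 and 19.4 CPM (log2 fold change -1.08), with no overlap.

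The promoters of the members were read because these genes moved together. RefSeq's table of promoters (GRCm38.p6, from 250 bases before to 50 after each start) held 74 promoters of 68 members. Letters bound by 4 factors or families known at housekeeping promoters were searched on both strands, and matches that share bases were each counted. The letters CCGGAAG of the ETS family, which includes GABP, were in 33.8% of member promoters, 16.5% of the promoters of all genes tested and 8.86% of all promoters in the table. GCGCANGCG, for nuclear respiratory factor 1 (NRF1), was in 21.6%, 12.7% and 6.25% of them, and AAGATGG, for YY1, in 17.6%, 6.90% and 6.34%. GGGCGG, for SP1, was in 52.7% of member promoters and in 61.3% of those of genes tested. The member interval for SP1 (41.5% to 63.7%) held the share of genes tested, so no difference was shown for these letters. Median GC content was 58.5% in member promoters and 60.7% in those of genes tested. In the 250 bases before the start alone, the member shares were 23.0% for ETS, 17.6% for NRF1, 8.11% for YY1 and 50% for SP1. Those of genes tested were 12.9%, 10.5%, 4.17% and 56.6%. There the member intervals for YY1 (3.77% to 16.6%) and SP1 (38.9% to 61.1%) held the shares of genes tested. Some members counted more than once, Mrpl48 with 4 promoters and Mrpl2 with 3 that overlap, and the intervals do not allow for this. A match is a description of these letters and not a binding site.

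The upstream stretches of 5 members are shown because they differ in these letters while standing for the largest falls (Mrps6, Mrps27, Mrpl12), the largest rise after silencing (Mrpl33, described below) and the member that fell with TNF (Mrps18a). Matches are in capitals, and the stretches hold no annotated exon. All are on the plus strand of GRCm38.p6. Mrps6 is at chr16:92058120-92058269, Mrps27 at chr13:99344706-99344785, Mrpl12 at chr11:120484463-120484612, Mrpl33 at chr5:31613789-31613938 and Mrps18a at chr17:46110836-46110985.
Mrps6: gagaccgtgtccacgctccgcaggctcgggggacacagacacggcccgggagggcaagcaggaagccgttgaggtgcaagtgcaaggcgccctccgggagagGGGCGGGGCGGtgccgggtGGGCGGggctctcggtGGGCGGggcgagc
Mrps27: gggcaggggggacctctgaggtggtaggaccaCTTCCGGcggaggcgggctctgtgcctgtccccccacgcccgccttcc
Mrpl12: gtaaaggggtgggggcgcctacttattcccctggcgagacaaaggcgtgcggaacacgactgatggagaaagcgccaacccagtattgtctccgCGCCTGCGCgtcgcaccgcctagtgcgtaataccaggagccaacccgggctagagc
Mrpl33: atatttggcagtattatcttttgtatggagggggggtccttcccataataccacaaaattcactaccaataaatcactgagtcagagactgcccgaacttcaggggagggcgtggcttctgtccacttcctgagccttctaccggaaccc
Mrps18a: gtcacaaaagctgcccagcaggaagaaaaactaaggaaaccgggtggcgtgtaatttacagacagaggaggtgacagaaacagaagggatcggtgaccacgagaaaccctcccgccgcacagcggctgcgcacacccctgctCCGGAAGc
Mrps6 holds 4 SP1 matches, 2 of them overlapping in its longest capital run, and none of the other letters. Mrps27 holds 1 ETS match on the minus strand, in a stretch it shares with the divergent gene Ptcd2. Mrpl12 holds 1 NRF1 match, Mrps18a holds 1 ETS match, and Mrpl33 holds none of the letters in this window. The stretch of Mrpl33 lies before its RefSeq start but inside its GENCODE M21 gene, chr5:31596935-31664384. The bases before the GENCODE start were not searched. ETS letters thus stood before Mrps27, which fell 2.18-fold in differentiation, and before Mrps18a, for which no difference was detected there.

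The comparison of Fbxl2 siRNA with control cells asked how the genes differed at 48 h when Fbxl2 was silenced. In the silenced cells 61 of 77 members rose, none fell and 16 did not pass (edgeR, adjusted p under 0.05). Among all genes tested 34.1% rose and 29.8% fell. The members' median log2 fold change was 0.34, against 0.03 over all genes. By role, 27 of 30 large subunit proteins with bacterial homologs rose (median 0.32), 14 of 20 mitochondria-specific large subunit proteins (0.36), 12 of 16 small subunit proteins with bacterial homologs (0.34) and 7 of 10 mitochondria-specific small subunit proteins (0.37). A rise of more than 1.5-fold was seen in 9 members and in 1535 of all 12736 genes. That count is near the background and is not a result about the members. In either direction, 11.7% of members and 23.1% of all genes passed that size. Cycling markers summed to 951 to 996 CPM in the silenced libraries against 439 to 499 CPM in control, and myotube markers to 789 to 1250 CPM against 2375 to 2837 CPM. Fibroblast markers summed to 8219 to 8854 CPM against 6439 to 6505 CPM. Of the 4 tested, 2 rose, 1, Dcn, fell (log2 fold change -0.31) and 1 did not pass. The part of these differences in the members' rise was not tested. This comparison and those of control with proliferation and with TNF use the same 3 control libraries.

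**Figure D3:**
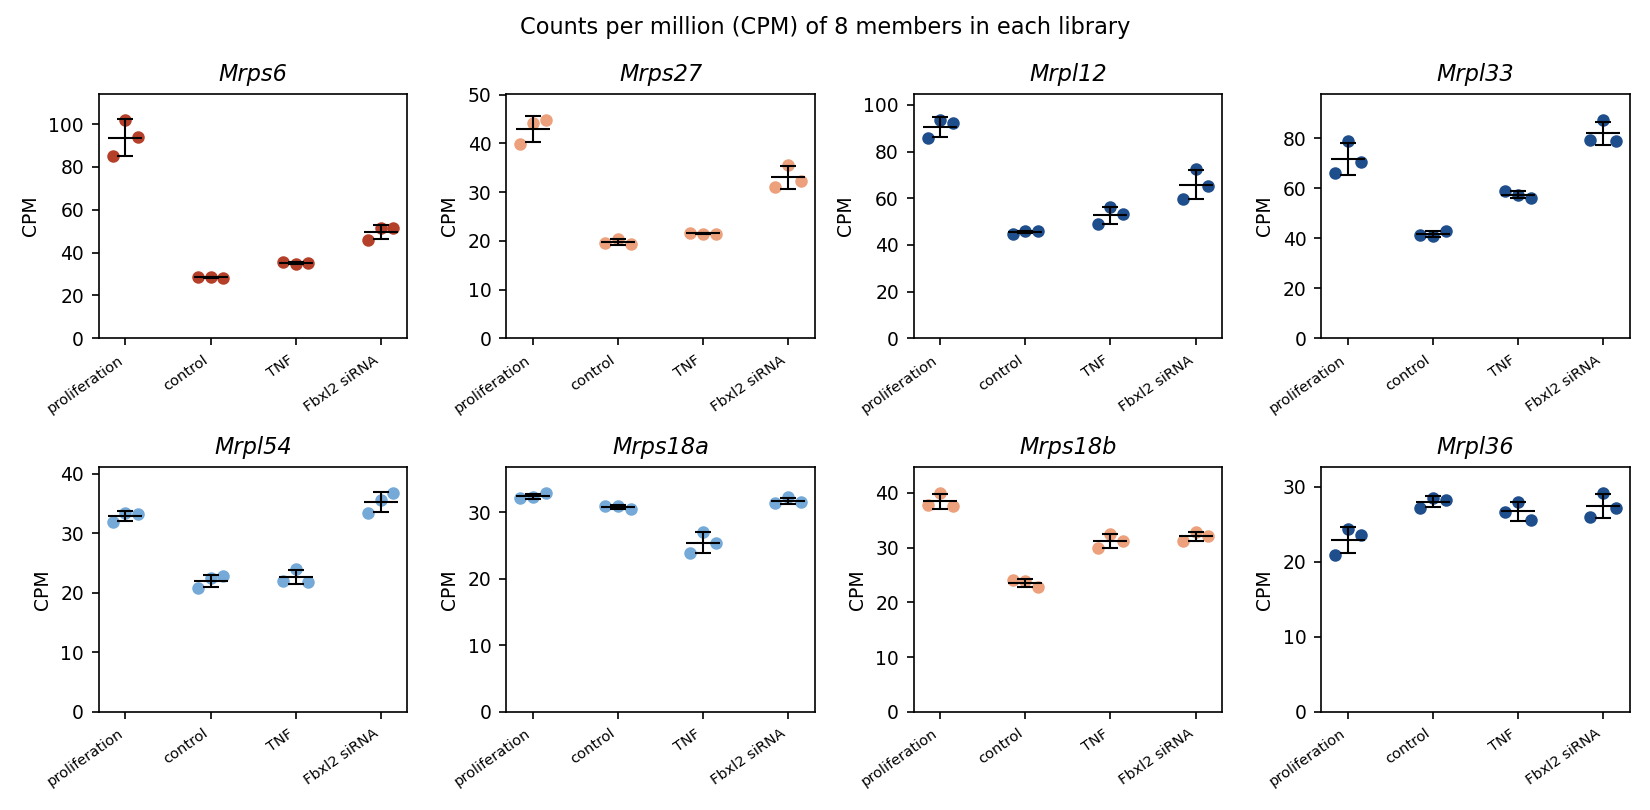
CPM of 8 members by group on the horizontal axis, 1 panel each with its own vertical axis from 0; points are libraries A, B and C from left to right, horizontal lines are means and bars are SD (n = 3). Mrps6, Mrps27 and Mrpl12 are lowest in control and intermediate in Fbxl2 siRNA cells, Mrpl33 is highest in Fbxl2 siRNA cells at 79.1 to 87.5 CPM, Mrps18a is lowest in TNF cells at 23.8 to 27 CPM, and Mrpl36 is lowest in proliferation.

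Mrpl33, a small large-subunit protein near the tRNA exit site, rose most. It was at 41.4, 40.9 and 42.9 CPM in control libraries and at 79.6, 87.5 and 79.1 CPM in silenced libraries. The rise was 1.97-fold without overlap (log2 fold change 0.98 ± 0.059, edgeR adjusted p = 1.54e-11). The silenced libraries also lay above the proliferation libraries, which were at 66.3, 78.8 and 70.7 CPM, although by little. The mean of Fbxl2 siRNA cells was the highest of the groups for 9 members, against 67 for which proliferation was highest.

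Other large rises were in Mrps6, Mrps27, Mrpl54 and Mrpl35. Mrps6 was at 46.1, 51.6 and 51.3 CPM in silenced libraries, above its controls at 28.2 to 28.8 CPM and below its level in proliferation (log2 fold change 0.80 ± 0.0632, edgeR adjusted p = 8.44e-10). Slc5a3, with which it shares exon bases, had a log2 fold change of 0.93. Mrps27 was at 31.1, 35.6 and 32.3 CPM against 19.4 to 20.4 CPM in control (log2 fold change 0.74). Mrpl54, specific to the mitochondrial large subunit, went from 20.8, 22.5 and 22.8 CPM in control to 33.4, 35.6 and 36.7 CPM (log2 fold change 0.68 ± 0.0593, edgeR adjusted p = 3.88e-09). Of the silenced libraries of Mrpl54, B and C were above its proliferation range of 31.9 to 33.4 CPM and A lay at the upper end of that range. Mrpl35, a bacterial-type large subunit protein, had a log2 fold change of 0.65.

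At the stalk, Mrpl12 rose to 59.8, 72.4 and 65.3 CPM from 44.8 to 45.9 CPM (log2 fold change 0.53) and Mrpl11 rose with a log2 fold change of 0.56. For Mrpl10 the value was 0.14 (edgeR adjusted p = 0.0173). That call was lost without control library A (adjusted p = 0.0918), without Fbxl2 siRNA library B (0.0581) or without library C (0.0800). Of the S18 paralogs, Mrps18b had a log2 fold change of 0.44 and Mrps18c one of 0.41, and both passed. Mrps18a was at 31.4, 32.3 and 31.5 CPM against 30.5 to 31 CPM in control, which did not pass (log2 fold change 0.04 ± 0.0534). Mrps30 rose (0.34), whereas Mrpl45 (0.10) and Mrps12 (0.11) did not pass.

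The comparison of TNF with control cells asked how the cytokine altered the genes during differentiation. With TNF, 28 members rose, 1 fell and 48 did not pass (edgeR, adjusted p under 0.05), with a median log2 fold change of 0.12 against 0.03 over all genes. Among all genes tested 31% rose and 23.6% fell. The share of members that rose, 36.4%, was therefore near the background and is not a result about the members. No member changed by 1.5-fold, against 20.4% of all genes. With upper quartile scaling 17 members rose and 4 fell, against 25.2% and 29.1% of all genes, and with library totals alone 17 rose and 4 fell, against 25.02% and 29.27%. The additional falls under both scalings were Mrpl16, Mrpl50 and Mrps5, named after their values were seen. By role, 11 of 30, 7 of 20, 6 of 16 and 3 of 10 members rose in the order used above. Cycling markers summed to 847 to 895 CPM in TNF libraries, myotube markers to 525 to 727 CPM and myogenic line markers to 1060 to 1096 CPM, the last against 2010 to 2096 CPM in control. Fibroblast markers summed to 3913 to 4182 CPM against 6439 to 6505 CPM. Of the 4 tested, 3 fell and 1, Pdgfra, rose (log2 fold change 1.04). The part of these markers in the members' changes was not tested.

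Single members moved further than this median. Mrpl33 again rose most, from 40.9 to 42.9 CPM in control to 58.9, 57.4 and 56.3 CPM with TNF (log2 fold change 0.46 ± 0.0598, edgeR adjusted p = 1.25e-06). The groups did not overlap, and the TNF libraries stayed below those of proliferation. Mrps18b rose from 22.8 to 24.1 CPM to 30, 32.4 and 31.2 CPM (log2 fold change 0.40 ± 0.0547, edgeR adjusted p = 2.37e-06). The mitochondria-specific large subunit proteins Mrpl52 (0.33) and Mrpl40 (0.29) and the small subunit protein Mrps6 (0.30) also rose. Mrps6 stood at 35.5, 34.9 and 35 CPM, above all of its controls.

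Mrps18a went the other way and was the member that fell. It was at 30.9, 31 and 30.5 CPM in control libraries and at 23.8, 27 and 25.4 CPM in TNF libraries. All TNF libraries were below all libraries of the other groups (log2 fold change -0.28 ± 0.0543, edgeR adjusted p = 0.000175). This member therefore showed no detected difference in differentiation or after silencing, where most members moved, and a fall with TNF. Mrps18c had a log2 fold change of 0.15 with TNF (edgeR adjusted p = 0.0418), and that call was lost when any of its 6 libraries was left out, with adjusted p from 0.0629 to 0.132.

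Mrpl12 rose to 49, 56.1 and 53.1 CPM with TNF (log2 fold change 0.21, edgeR adjusted p = 0.00855), a call lost without TNF library B (adjusted p = 0.0640). Mrps30 rose by 0.19 on the log2 scale (edgeR adjusted p = 0.0108). It did not pass without control library B (adjusted p = 0.0794) or without TNF library C (0.0586), nor with upper quartile scaling (0.0571) or library totals (0.0576). Mrpl45 rose (0.18), while Mrpl10 (0.05), Mrpl11 (0.12) and Mrps12 (0.17) did not pass.

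TNF and silenced cells were also compared with each other directly. In TNF cells 54 members were lower than in Fbxl2 siRNA cells, 1 was higher and 22 did not pass (edgeR, adjusted p under 0.05). Among all genes tested 30.6% were lower and 29.9% higher. The members' median log2 fold change was -0.23, against -0.01 over all genes. In either direction, 3 members (3.9%) differed by more than 1.5-fold, against 21.1% of all genes. By role, 20 of 30, 15 of 20, 12 of 16 and 6 of 10 members were lower in TNF cells. Beside this, fibroblast markers summed to 3913 to 4182 CPM with TNF against 8219 to 8854 CPM after silencing. Of the 4 tested, 3 were lower with TNF and 1 higher. Myogenic line markers summed to 1060 to 1096 against 1775 to 1910 CPM, and myotube markers to 525 to 727 against 789 to 1250 CPM. Cycling markers summed to 847 to 895 against 951 to 996 CPM, but singly 2 were higher with TNF, 2 lower and 2 did not pass. The part of these markers in the members' difference was not tested. The largest differences were in mitochondria-specific proteins: Mrpl54, Mrpl53, Mrps27 and Mrpl57, followed by the bacterial-type Mrpl33.

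Mrpl54 was at 22, 24 and 21.8 CPM with TNF and at 33.4, 35.6 and 36.7 CPM after silencing (log2 fold change -0.64 ± 0.0593, edgeR adjusted p = 9.01e-09). Mrpl53 was at 19.6, 21.7 and 21 CPM against 29.8, 34.8 and 32.3 CPM (log2 fold change -0.64). Of the 790 exon bases of Mrpl53, 695 are shared on the same strand with the gene model Gm42688, so nearly all of its reads could belong to either. Both sets of TNF libraries lay within or close to their control levels (log2 fold changes of 0.04 and -0.05, which did not pass), while the silenced libraries lay above. Mrps27 had a log2 fold change of -0.62, Mrpl57 one of -0.57 and Mrpl33 one of -0.51. Among the others named here, Mrps6 (-0.50), Mrpl11 (-0.44), Mrpl12 (-0.32), Mrps18a (-0.32) and Mrps18c (-0.25) were lower with TNF.

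Mrps2, a bacterial-type small subunit protein, was the member that was higher with TNF, at 39.2, 37 and 39.2 CPM against 35, 33.8 and 35.1 CPM (log2 fold change 0.15 ± 0.0493, edgeR adjusted p = 0.0117). Its groups did not overlap, but the call was lost with upper quartile scaling (adjusted p = 0.107) and in libraries B and C alone (0.0538). Mrps30 was lower by a log2 fold change of -0.15 (edgeR adjusted p = 0.0342). This did not pass without TNF library A (adjusted p = 0.0706) or B (0.138), or without Fbxl2 siRNA library B (0.140) or C (0.0635). Mrps18b (-0.04), Mrpl10 (-0.09), Mrpl45 (0.09) and Mrps12 (0.06) did not pass, although Mrpl10 passed with upper quartile scaling (log2 fold change -0.14, edgeR adjusted p = 0.0162).

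**Figure D4:**
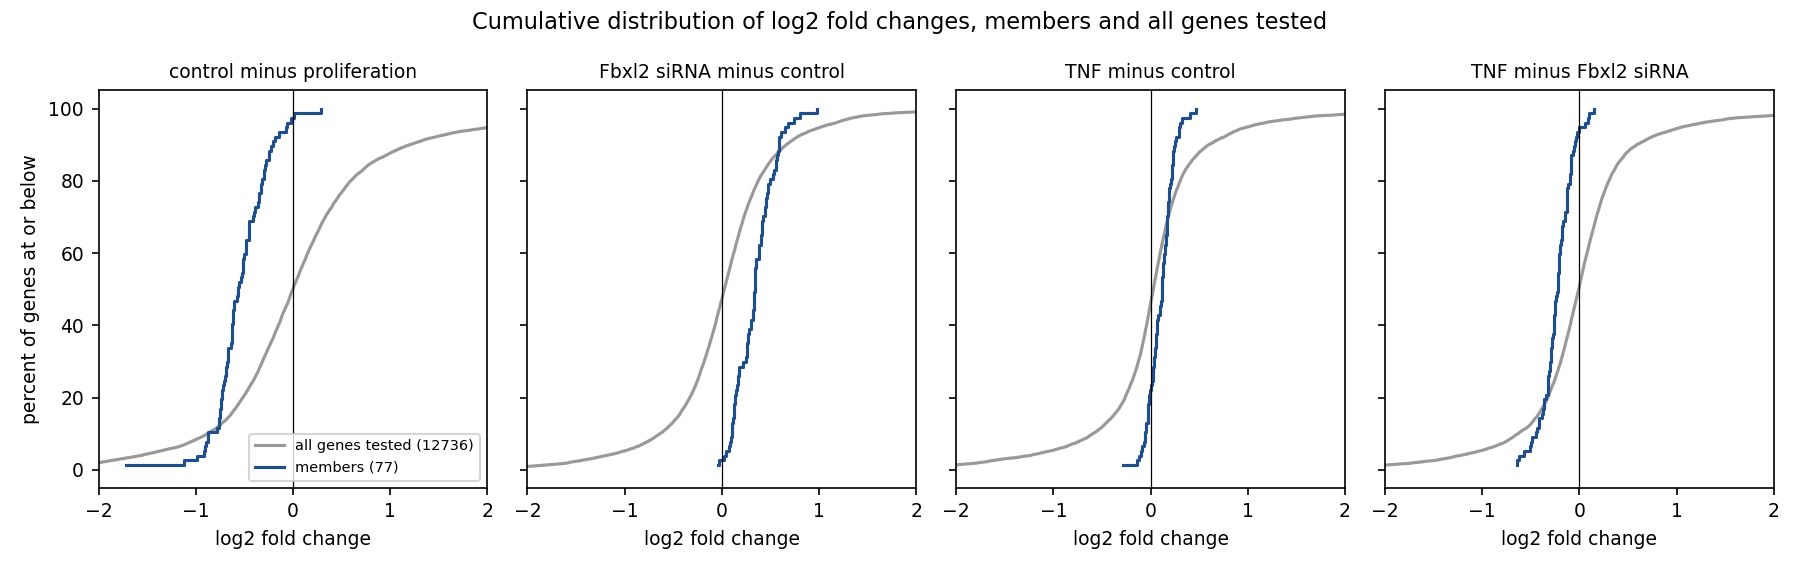
Cumulative percent of genes (vertical axis) at or below each log2 fold change (horizontal axis, shown from -2 to 2), for the 77 members in blue and all 12736 genes tested in grey, in the 4 comparisons. The member curve lies left of the grey curve around its median for control minus proliferation (medians -0.57 and -0.000836), right of it for Fbxl2 siRNA minus control (0.34 and 0.03), and closest to it for TNF minus control (0.12 and 0.03).

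Across the groups the order of the means was proliferation, Fbxl2 siRNA, TNF, control for 49 of the 77 members. Another 13 had control above TNF with the rest in that order. Control was the lowest group for 58 members, TNF for 16, proliferation for 2 and Fbxl2 siRNA for 1. These orders were not counted over all genes. Neighbours in this order did not always differ beyond their spread, as the 48 members that did not pass between TNF and control show.

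The rest of the translation system was read from lists of its parts, and most examples named from each list are those with the smallest p in their direction. In differentiation 38.9% of all genes tested fell and 38.4% rose. There 17 of 22 assembly factors fell (median log2 fold change -0.30) and none rose. They include Noa1, a GTPase of small subunit assembly (-0.44), and Malsu1, which keeps the subunits apart during large subunit assembly (-0.57). Of 14 translation factors 9 fell and none rose (median -0.25), among them the elongation factors Tsfm (-0.88) and Tufm (-0.51). Of 15 genes for upkeep and transcription of mitochondrial DNA 10 fell and none rose (median -0.35), among them Pnpt1, the mitochondrial polynucleotide phosphorylase (-0.77), Hsd17b10, a subunit of mitochondrial RNase P (-0.56), and the transcription factor Tfam (-0.59). These medians were all nearer to 0 than that of the members, a difference that was not tested.

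The messenger RNAs encoded by mitochondrial DNA, which these ribosomes translate, went in the opposite direction. Of 13 measured, 12 rose in differentiation (92.3%, against 38.4% of all genes) and 1 fell, with a median log2 fold change of 1.45. For mt-Nd5, a complex I subunit, the proliferation libraries were at 229, 199 and 212 CPM and the control libraries at 841, 826 and 839 CPM (log2 fold change 1.97 ± 0.0576, edgeR adjusted p = 5.55e-17). All control libraries were higher. For mt-Nd4l the log2 fold change was 1.82, and for mt-Nd3, the one that fell, it was -0.98. After silencing 9 were lower than control (69.2%, against 29.8% of all genes) and 1 was higher, with a median of -0.37. That is the comparison in which 61 of the members rose. In the silenced libraries mt-Nd5 was at 609, 576 and 537 CPM (log2 fold change -0.54), mt-Nd4 had a log2 fold change of -0.64 and mt-Nd4l one of -0.57, and mt-Nd3 was the one that rose (0.47). With TNF 4 were lower, among them mt-Nd5 (-0.31) and mt-Nd6 (-0.31), mt-Nd3 was higher (0.43) and 8 did not pass. The median was -0.06, and the 30.8% that were lower were near the 23.6% of all genes. Since mt-Nd5 and mt-Nd6 lie on opposite strands of overlapping transcripts, their reads could not be told apart without strand. Libraries were made with an mRNA kit, per the labels, and how fully it captures these RNAs was not tested.

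**Figure D5:**
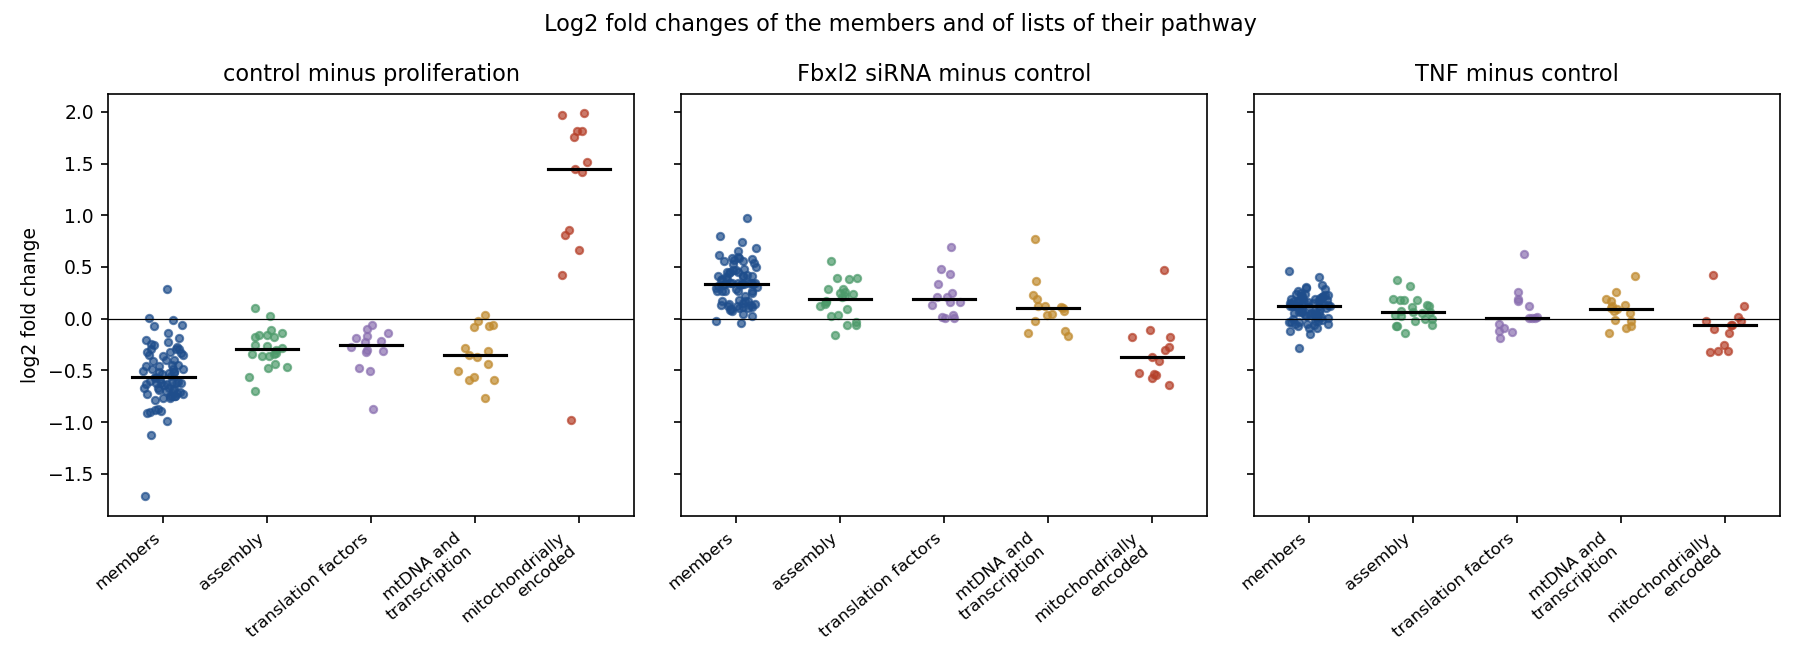
Log2 fold changes (vertical axis) of the 77 members and of 4 lists of their pathway, in 3 comparisons that share the control libraries; each point is a gene, spread sideways to separate points, and black lines are medians. In control minus proliferation the members' median is -0.57 and that of the mitochondrially encoded genes 1.45, and in Fbxl2 siRNA minus control they are 0.34 and -0.37.

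After silencing, where 34.1% of all genes rose and 29.8% fell, 13 of 22 assembly factors rose. Among them were Malsu1 (0.56) and the pseudouridine synthase Rpusd4 (0.40), whereas Dhx30, an RNA helicase, fell (-0.15). Of 14 translation factors 10 rose and none fell, among them Tsfm (0.48) and Mtfmt, which formylates the initiator tRNA (0.43). The largest of these rises was that of the scarce release factor gene Mtrf1, at 0.885 to 1.1 CPM in silenced libraries (log2 fold change 0.69, edgeR adjusted p = 0.0197). All 6 ribosomal proteins with other names rose, Chchd1 most, to 33, 38.9 and 36.7 CPM from 19.4 to 21.8 CPM (log2 fold change 0.82), and Dap3 also (0.43). The genes for mitochondrial DNA and its transcription gave a mixed picture. Of 15, 4 were higher (26.7%, below the 34.1% of all genes), including Pnpt1 (0.77) and Hsd17b10 (0.36), and 2 were lower, the helicase Peo1 (-0.16) and the polymerase Polg (-0.13).

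With TNF 4 of 22 assembly factors rose, including Rpusd4 (0.37) and Mterf3 (0.32), 3 of 14 translation factors, Slirp (0.26) and Mtrf1 (0.62) among them, and 4 of 15 genes for mitochondrial DNA and transcription, including Pnpt1 (0.41) and Ssbp1 (0.25). These shares, 18.2%, 21.4% and 26.7%, were below the 31% of all genes that rose, and none of these lists had a member that fell. Of the 6 proteins with other names 3 rose, including Chchd1 (0.31) and Gadd45gip1 (0.29). Between TNF and silenced cells, 8 of 22 assembly factors were lower with TNF, including Malsu1 (-0.38) and Mtg1 (-0.35), and 4 higher, among them Nsun4 (0.24) and Dhx30 (0.15). The 36.4% that were lower were near the 30.6% of all genes. Of 14 translation factors 7 were lower, including Tsfm (-0.35) and Oxa1l (-0.26). Of the 13 mitochondrially encoded genes 9 were higher with TNF (69.2%, against 29.9% of all genes), including mt-Co1 (0.39) and mt-Cytb (0.38).

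Regulators of mitochondrial biogenesis were split in direction with TNF and after silencing, and more of them fell than rose in differentiation. With TNF 4 of 10 rose and 4 fell, against 31% and 23.6% of all genes. After silencing 3 rose and 2 fell, against 34.1% and 29.8%. In differentiation 6 fell and 1 rose, against 38.9% and 38.4%. Myc, which drives growth genes, went from 49.5, 39.7 and 40.7 CPM to 20.6, 20.4 and 19.9 CPM (log2 fold change -1.09), to 38.5, 40.3 and 41.1 CPM with TNF and to 29.2, 32.1 and 29.8 CPM after silencing. It was thus lowest in control and higher with TNF than after silencing (log2 fold change 0.40). Most members were lower with TNF than after silencing, and a link between them and Myc was not tested. Ppargc1a, the coactivator PGC-1alpha, was scarce, at 2.63 to 2.9 CPM in proliferation, 0.975 to 1.71 in control, 0.567 to 0.699 with TNF and 1.95 to 2.38 after silencing. It differed in all comparisons, with log2 fold changes of -1.01 for differentiation, -1.15 for TNF and 0.63 for silencing. Esrra, an orphan nuclear receptor that works with it, changed by -0.46, -0.27 and 0.25 in the same order.

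Nrf1, the factor whose letters are searched above as NRF1, fell by 0.38 on the log2 scale in differentiation and rose with TNF (0.14), while its value of 0.07 after silencing did not pass. Gabpa, the ETS subunit of GABP, was at 132 to 146 CPM in proliferation and 137 to 139 CPM in control, and fell with TNF (-0.15). Tfam, after its fall in differentiation, did not pass with TNF (0.13) or silencing (0.12). Pprc1, a relative of PGC-1alpha, rose in differentiation (0.49) and with TNF (0.28) and fell after silencing (-0.16). Yy1 rose with TNF (0.17) and fell after silencing (-0.14).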

How the data were processed

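Total RNA of 12 C2C12 libraries in 4 groups was sequenced. Per gene, the authors deposited raw counts, whole numbers for 21232 symbols, 4354 of them with no count. The submitters' processing notes name CASAVA, DESeq2 and mm10. For the aligner, counter, strand setting and annotation, nothing was found: not given in the sources used here. Reads of overlapping genes, antisense genes and near-identical copies could therefore not be separated. The authors' comparison tables were not used.

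Counts were fitted with edgeR 4.0.16 (R 4.3.3, limma 3.58.1) by filterByExpr, TMM and robust quasi-likelihood, fitting a mean for each of 4 groups (residual degrees of freedom: 8). Benjamini-Hochberg adjustment ran over the 12736 genes kept, and genes under 0.05 were called. Standard errors are the log2 fold change over the square root of F, an approximation. The procedure was tested on simulated data. Alternatives were DESeq2 1.42.0, other scalings and filters, 2 groups only, a block on the letters, each library left out, and libraries B and C only, the last chosen after seeing the data. Replicates of a group differed by more than sampling noise (chi-square per degree of freedom 1.60 to 21.3). The members and lists were chosen with earlier results of these data known. Named were the 5 largest rises and falls among members called in each comparison, a set of members at known sites (Mrpl10, Mrpl11, Mrpl12, Mrps12, Mrps18a, Mrps18b, Mrps18c, Mrpl45, Mrps30), 6 regulators, and the 2 genes of smallest p in each direction of every further list. All 77 members matched 1 protein-coding gene of GENCODE M21 (GRCm38), on 17 chromosomes, and 23 have exons overlapping another protein-coding gene. Promoters are from RefSeq (GRCm38.p6). The median biological coefficient of variation over all genes was 0.0482. It leaves out counting error, which adds to the spread of the members.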

Additional observations from a re-analysis of the deposited data

How the results depend on the processing

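The count of members that fell in differentiation was 70 to 72 with any library left out and 71 in the other alternatives, and 1 member rose in all of them. After silencing 55 to 62 members rose with a library left out and 56 to 63 otherwise, and none fell. The TNF comparison moved more. There 28 members rose, 19 to 29 with a library left out and 17 with upper quartile scaling or library totals. The number that fell, 1, became 4 with either of those scalings and with 2 groups only, 2 with the replicate block, and 1 to 2 with a library left out, the 2 without TNF library C. Between TNF and silenced cells 54 members were lower (44 to 55 with a library left out, 48 to 66 otherwise) and 1 higher, a count of 0 with upper quartile scaling and in libraries B and C alone. The labels do not say that the letters mark a shared batch. Deviations of same-lettered libraries correlated between -0.0910 and 0.183 over all genes and between -0.209 and 0.163 over the members, not above 0.1 for every letter in any comparison, so the letters were not used as pairs. A correlation over the members cannot show a shift common to them all. Library A did have the lowest summed level of the members in each group. With the replicate block 71 members fell in differentiation, 63 rose after silencing, 30 rose with TNF and 56 were lower in TNF than in silenced cells. The difference of Mrps12 between TNF and silenced cells changed sign with upper quartile scaling (-0.0037) and ranged from -0.0398 (without TNF library B) to 0.12 with a library left out, being -0.01 without Fbxl2 siRNA library A. That of Mrpl10 with TNF became -0.00013 with library totals. None of these passed a test. The difference of Mrpl10 between TNF and silenced cells passed with upper quartile scaling only (-0.14, adjusted p = 0.0162). Summed levels were 2214 CPM (library totals) and 2196 CPM (upper quartile) in control and 2297 CPM (upper quartile) in TNF. The promoter shares before the start alone were 23.0% for ETS and 8.11% for YY1. Of 728 values of named members under alternatives, 695 kept direction and side of the threshold, 27 lost the call, 2 gained it and 4 changed sign. Most of the lost calls were those of Mrps18c and Mrps30 with TNF, Mrps30 between TNF and silenced cells, and Mrpl10 after silencing, 3 of which were also lost with DESeq2 (Mrps18c adjusted p = 0.104, Mrps30 0.0820 and Mrpl10 0.0709). The cause was not tested.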

Other observations

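Mrpl46 and Mrps11 lie head to head on chromosome 7, with 173 bases of exon in common on opposite strands. Mrpl46 makes a large subunit protein and Mrps11 a small subunit protein. Mrpl46 was at 14.7, 15.4 and 16.2 CPM in proliferation and 10.3, 10.8 and 10.1 CPM in control. Mrps11 was at 15, 15.8 and 16.7 CPM and 10.8, 11.9 and 12 CPM. The log2 fold changes of the pair in differentiation were -0.57 and -0.46, after silencing 0.42 and 0.18, and with TNF 0.10 and -0.03, the last 2 of which did not pass. Reads from the shared bases could not be told apart.

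Libraries of a group differed in a common direction over the members. In proliferation library B was the highest of the group for 53 of 77 members and library A the lowest for 51. In Fbxl2 siRNA cells library B was highest for 58 and library A lowest for 58, and in TNF cells library B was highest for 41 and library A lowest for 46. In control cells the libraries shared these places, with B highest for 29 and A and B lowest for 28 each. Such places were not counted over all genes. In the titles the A libraries carry lower sample numbers than the others, and what these numbers stand for is not given in the sources used here. Within libraries B and C alone, an alternative chosen after seeing the data, 71 members fell in differentiation, 59 rose after silencing, 27 rose with TNF and 51 were lower in TNF than in silenced cells, of which 71, 58, 24 and 50 were the same genes as with all libraries. Mrpl11 passed with TNF in those libraries (log2 fold change 0.20, edgeR adjusted p = 0.0176).

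The spread between libraries was also smallest in control. The median coefficient of variation of a member was 3.003% in control, 4.12% in TNF, 5.58% in proliferation and 5.75% in Fbxl2 siRNA cells (n = 3 libraries each). The test above used 1 estimate of spread for all groups.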
